A study of Mus musculus with 8 samples.

Results

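The collagen genes outside cartilage were examined in the genital tubercle of mouse embryos, from which the external genitalia of both sexes develop. They were taken by name: every probe set annotated to a single gene with a collagen chain symbol, leaving out Col2a1, Col9a1, Col9a2 and Col11a1. This gave 76 probe sets of 38 genes, among 45101 probe sets on the array. The rule kept Col9a3, Col10a1 and Col11a2, which are also known from cartilage, so the name of the set does not hold for all its members. The samples were 4 male and 4 female FVB/N embryos at embryonic day 14 (Theiler stage 22), with 1 Affymetrix MOE430 array for each embryo sample. No genotype other than the inbred strain and no treatment was named, and the labels state that samples were not pooled. Nothing in the labels says whether samples share a litter or a hybridization day, so each p-value reflects only how far these arrays vary, part of which may be technical. All values are deposited linear intensities. A difference is the male mean minus the female mean of log2(intensity + 16), given ± its standard error (SE) from limma; on this scale the change of dim probe sets is understated.

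Collagens are secreted proteins of the extracellular matrix whose chains wind around each other into a helix. Fibrillar collagens form the tension-bearing fibres of mesenchyme, type IV collagen forms the sheet of the basement membrane under epithelia and around vessels, and fibril-associated collagens sit on fibre surfaces. Type VI collagen forms beaded filaments around cells, and the transmembrane collagens are held in the cell membrane. Chains are hydroxylated and folded in the endoplasmic reticulum, exported, trimmed of their end pieces and crosslinked outside the cell.

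The libraries matched the labelled tissue and sex with 1 exception. The limb and genital mesenchyme factor Prrx1 read 28585 to 32314 on the male arrays and 27086 to 28878 on the female arrays. The Y-linked gene Eif2s3y read 4109 to 6136 in males and 31.1 to 70.9 in females on its brighter probe set. Male replicate 3 also read 16036 for Xist, the RNA of the inactive X chromosome, where the other male arrays read 230.0 to 619.6 and the female arrays 32465 to 35816 on the same probe set. A pair of technical measures moved with sex. The 18S ribosomal RNA control read 26742 ± 5680 on the male arrays and 13215 ± 4445 on the female arrays (SD, n = 4 each; two-sided p = 0.0286 by exact permutation, which is the minimum for 4 against 4, and 0.0571 adjusted over 4 measures). The array medians on the log2 scale were 7.93 ± 0.12 in males and 7.72 ± 0.07 in females (SD, n = 4 each), with equal p-values by exact permutation. The log2 ratio of the 3′ to the 5′ Gapdh control, a measure of RNA length after the 2 rounds of amplification, was 3.81 ± 0.19 in males and 4.01 ± 0.25 in females (SD, n = 4 each; exact permutation test, two-sided, p = 0.257, adjusted 0.343). The part of these measures in the differences below was not tested beyond a fit with the 18S level as a covariate. In that fit 0 of the member probe sets passed, beside 1.84% of all 22519 tested probe sets. The 18S level did not overlap between the sexes (21050 to 33634 in males, 8332 to 18926 in females), so the fit can hardly tell it apart from sex.

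Of the 76 collagen probe sets, 50 of 30 genes were bright enough to be tested, and 20 of these passed at a limma adjusted p under 0.05. That is 40%, beside 40.5% of all 22519 tested probe sets, so the sexes differed for collagen genes about as often as for any gene. Higher values in males were called for 9 probe sets (18.7% over all tested probe sets) and lower values in males for 11 (21.9%). The male and female ranges did not overlap for 21 of the 50, which is 42%, beside 37.1% of all tested probe sets. Counted by gene, 7 of the 30 had calls higher in males only, 7 lower only, 1 in both directions and 15 had no call. The median difference was -0.05 over the 50 collagen probe sets and -0.01 over all tested probe sets. With the 18S level as a covariate all 20 called probe sets kept their sign and 12 had an unadjusted p under 0.05, while 414 probe sets of the whole array passed. That fit moved 5 of the 20 differences by over 1.5 times, all toward 0: the brighter Col1a1 probe set to 0.19, Col24a1 to 0.60, the called Col23a1 probe set to 1.47, the dimmer Col4a1 probe set to -0.35 and the dimmer called Col5a1 probe set to -0.15. The plot of differences shows the calls by collagen class, with 1 to 15 tested probe sets in a class.

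**Figure D1:**
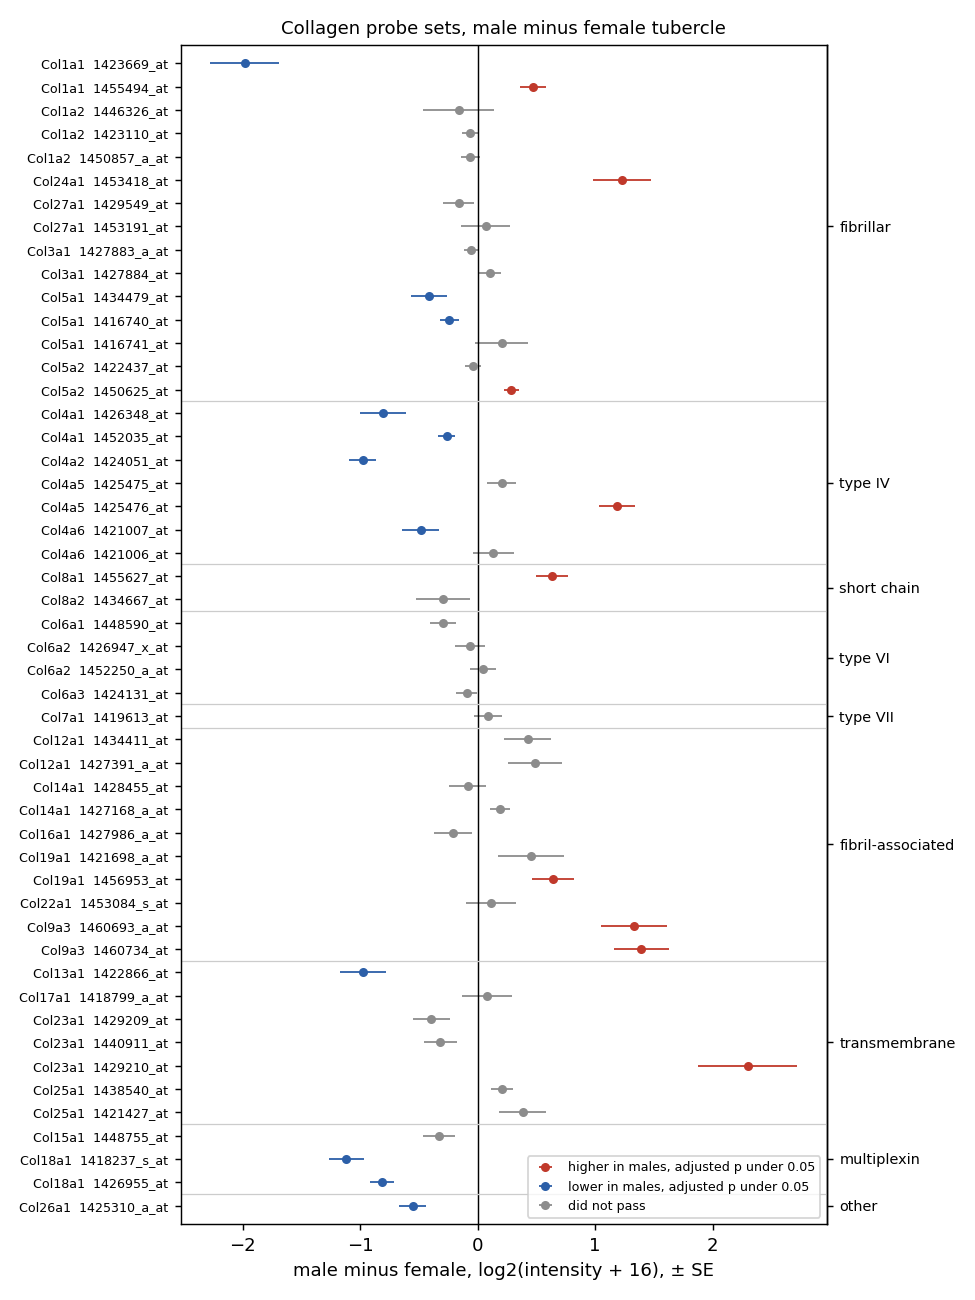
Male minus female difference of log2(intensity + 16) for the 50 tested collagen probe sets (points, bars are ± SE of the limma fit, n = 4 per sex), grouped by collagen class from top to bottom. Red points were higher and blue points lower in males at an adjusted p under 0.05, and grey points did not pass. Multiplexin points lie left of 0, and type IV points lie on both sides, with 4 called to the left and 1 to the right. Col9a3 and Col24a1 lie to the right, and the probe sets of Col1a1 and of Col23a1 lie on both sides.

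The type IV genes of the basement membrane held calls in both directions. Of 12 probe sets of 6 genes, 7 of 4 genes were tested, with 1 called higher and 4 called lower in males. The called share of these 7 was 71.4%, beside 40.5% of all tested probe sets (21.9% lower in males). Col4a1 and Col4a2 encode the chains of the common type IV network of all basement membranes, and both were lower in males. Col4a2 (chromosome 8, 11312805 to 11449287, GRCm38.p6) read 5967, 5344, 4103 and 5344 on the male arrays, against 11049, 10526, 9149 and 9973 on the female arrays. Every male value lay below every female value, with means of 5189 ± 782 in males and 10174 ± 812 in females (SD, n = 4 each). The difference was -0.98 ± 0.12 (SE, limma adjusted p = 0.000132).

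Col4a1 (chromosome 8, 11198423 to 11312889) was read on a pair of tested probe sets. The brighter read 19267, 17188, 16079 and 16920 in males, against 20312, 22176, 20956 and 19885 in females (-0.26 ± 0.07, limma adjusted p = 0.0123). The dimmer read 1668, 2025, 1243 and 2167 in males, against 3687, 3471, 3051 and 2214 in females (-0.81 ± 0.20, limma adjusted p = 0.00692). Neither pair of ranges overlapped, although on the dimmer probe set the lowest female value nearly met the highest male value. The brighter call missed the threshold without the mean-variance trend (limma adjusted p = 0.0634), and the dimmer one without male replicates 1 and 3 (limma adjusted p = 0.0509, difference -0.54). The other alternatives gave limma adjusted p of at least 0.00186 for the brighter and 0.00299 for the dimmer probe set, and with the 18S covariate 0.199 and 0.572. On male arrays the log2 ratio of the brighter Col4a1 to the Col4a2 probe set ran from 1.66 to 1.97. On female arrays it ran from 0.88 to 1.19, without overlap. This ratio depends on the probe set, as the dimmer Col4a1 probe set differed by -0.81, near the -0.98 of Col4a2. No ratio was taken for that dimmer probe set.

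Col4a1 and Col4a2 lie head to head with overlapping 5′ ends, as each start site lies inside the other gene. Their promoter windows are printed because the start sites are 21 bases apart and both genes were lower in males. Col4a5 and Col4a6 also lie head to head, 1343 bases apart on the X chromosome, and their windows are printed because these neighbours were called in opposite directions. Each RefSeq window (GRCm38.p6) holds 250 bases before and 50 from the start site, 5′ to 3′ on the gene's own strand, at chr8:11312777-11313076 (minus strand) for Col4a1, chr8:11312555-11312854 (plus) for Col4a2, chrX:141475169-141475468 (plus) for Col4a5 and chrX:141474027-141474326 (minus) for Col4a6. Capitals mark the GC box (GGGCGG), the CCAAT box (CCAAT) and the TATA box (TATAAA), searched on both strands; no matches overlap.
Col4a1: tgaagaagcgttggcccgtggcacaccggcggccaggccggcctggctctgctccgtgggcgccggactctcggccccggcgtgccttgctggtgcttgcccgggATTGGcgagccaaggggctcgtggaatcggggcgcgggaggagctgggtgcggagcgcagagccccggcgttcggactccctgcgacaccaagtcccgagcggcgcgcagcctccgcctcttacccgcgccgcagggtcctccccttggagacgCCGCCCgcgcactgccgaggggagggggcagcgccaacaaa
Col4a2: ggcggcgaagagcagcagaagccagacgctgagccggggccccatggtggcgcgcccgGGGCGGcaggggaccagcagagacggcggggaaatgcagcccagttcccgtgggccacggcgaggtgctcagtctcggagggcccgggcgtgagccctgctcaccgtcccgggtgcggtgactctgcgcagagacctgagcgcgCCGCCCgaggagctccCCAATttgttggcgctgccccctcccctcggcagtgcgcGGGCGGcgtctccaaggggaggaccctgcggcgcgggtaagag
Col4a5: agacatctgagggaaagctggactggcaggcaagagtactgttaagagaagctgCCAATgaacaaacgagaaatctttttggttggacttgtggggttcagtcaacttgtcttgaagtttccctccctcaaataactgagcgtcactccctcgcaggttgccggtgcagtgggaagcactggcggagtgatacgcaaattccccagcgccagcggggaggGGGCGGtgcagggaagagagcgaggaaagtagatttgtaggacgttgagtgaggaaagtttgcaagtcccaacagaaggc
Col4a6: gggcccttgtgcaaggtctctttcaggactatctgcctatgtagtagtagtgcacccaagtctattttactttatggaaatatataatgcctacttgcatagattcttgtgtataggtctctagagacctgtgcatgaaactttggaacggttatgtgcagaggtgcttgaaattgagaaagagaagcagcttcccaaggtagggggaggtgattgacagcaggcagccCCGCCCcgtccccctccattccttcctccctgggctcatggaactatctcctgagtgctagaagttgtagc
The Col4a1 window held 1 GC box and 1 CCAAT box, the Col4a2 window 3 and 1, the Col4a5 window 1 and 1, and the Col4a6 window 1 and 0. No window held a TATA box. The Col4a1 and Col4a2 windows share 78 bases, so a match there is counted in both. Among all 32851 promoter windows of the same length, 35.7% held a GC box, 37.4% a CCAAT box and 13.6% a TATA box. The matches describe letters in these windows and no binding was measured.

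Col4a5 and Col4a6 encode chains of the type IV networks found in particular epithelia and around smooth muscle. Col4a5 (chromosome X, 141475370 to 141689236) read 2806, 3961, 3904 and 3825 on the male arrays of its brighter probe set, against 1362, 1436, 1578 and 1953 on the female arrays. All male values lay above all female values, with a difference of 1.19 ± 0.15 (limma adjusted p = 0.000194). Its other tested probe set also read higher on each male array (1355 to 1526) than on any female array (1247 to 1271) but did not pass (0.20 ± 0.12, limma adjusted p = 0.20). Col4a6 (chromosome X, 141165403 to 141474095) read 890.5, 1239, 1240 and 1026 in males, against 1421, 1528, 1838 and 1368 in females (-0.48 ± 0.16, limma adjusted p = 0.028). The Col4a6 call ended without male replicate 1 or 4 or female replicate 2 or 3 (limma adjusted p 0.057 to 0.0954; over all alternatives from 0.0132 to 0.337). Its dimmer probe set read 337.5 to 437.7 in males and 322.8 to 393.5 in females and did not pass (0.13 ± 0.18). Male replicate 3, the array with Xist signal, read close to male replicate 2 for both genes. A log2 ratio was taken of the brighter Col4a5 to the brighter Col4a6 probe set, which were called in opposite directions. It ran from 1.64 to 1.88 on male arrays and from -0.22 to 0.51 on female arrays. The separation follows from these calls. The dimmer probe sets of both genes differed in the same direction without passing (0.20 and 0.13), and their ratio was not taken. Col4a3 and Col4a4, whose chains join Col4a5 in the kidney filter, lay under the intensity filter on all their probe sets, with 3.38 to 117.9 over all arrays.

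The multiplexin genes, which encode basement membrane collagens carrying sugar side chains, read lower in males. Col18a1 (chromosome 10, 77052178 to 77166530), the source of the fragment endostatin, read 3532, 3041, 3401 and 3533 in males, against 6522, 5923, 6062 and 5276 in females. Its difference was -0.81 ± 0.10 (limma adjusted p = 0.000179). A dimmer Col18a1 probe set, whose suffix marks probes shared between transcripts, read 999.5, 753.2, 737.0 and 701.8 in males, against 1834, 1595, 1793 and 1721 in females (-1.12 ± 0.15, limma adjusted p = 0.000224). Both probe sets thus separated the sexes in the same direction, and both calls held in all 8 fits without 1 array. Col15a1, its relative in muscle and vessel basement membranes, read 841.9 to 1046 in males and 1187 to 1258 in females and missed the threshold (-0.33 ± 0.13, limma adjusted p = 0.0667).

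Epithelium and vessels lie on basement membranes, and markers of both were measured. Of 9 tested blood endothelial markers, 3 were higher in males (Kdr 1.16 ± 0.19, Tek 0.93 ± 0.16 and Pecam1 0.66 ± 0.21) and 1 was lower (Cdh5, -0.57 ± 0.11). Esam (-0.33) and Robo4 (-0.38) did not pass but read lower in males without overlap, while Emcn, Cldn5 and Egfl7 overlapped. The untested Tie1 read 49.1 to 123.7 in males and 143.6 to 246.0 in females. The median difference of the 9 was -0.09. The summed intensity of the 10 measured endothelial markers was 12326 to 15148 on male arrays and 10975 to 12824 on female arrays. Of 10 epithelial markers, 1 was higher in males (Trp63, 0.48) and 4 were lower (Krt8, Krt14, Krt18 and Krt5, -1.15 to -0.75, with 1 other Krt14 probe set of the opposite sign), with sums of 60089 to 66154 in males and 59195 to 69256 in females. No marker of either list stayed under 100 on all arrays. The called share was 44.4% for endothelial and 50% for epithelial markers, beside 42.2% of all tested genes. In such whole-tissue samples fewer cells of a type and less RNA per cell cannot be told apart, and the part of these cell types in the type IV and type XVIII differences was not tested.

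**Figure D2:**
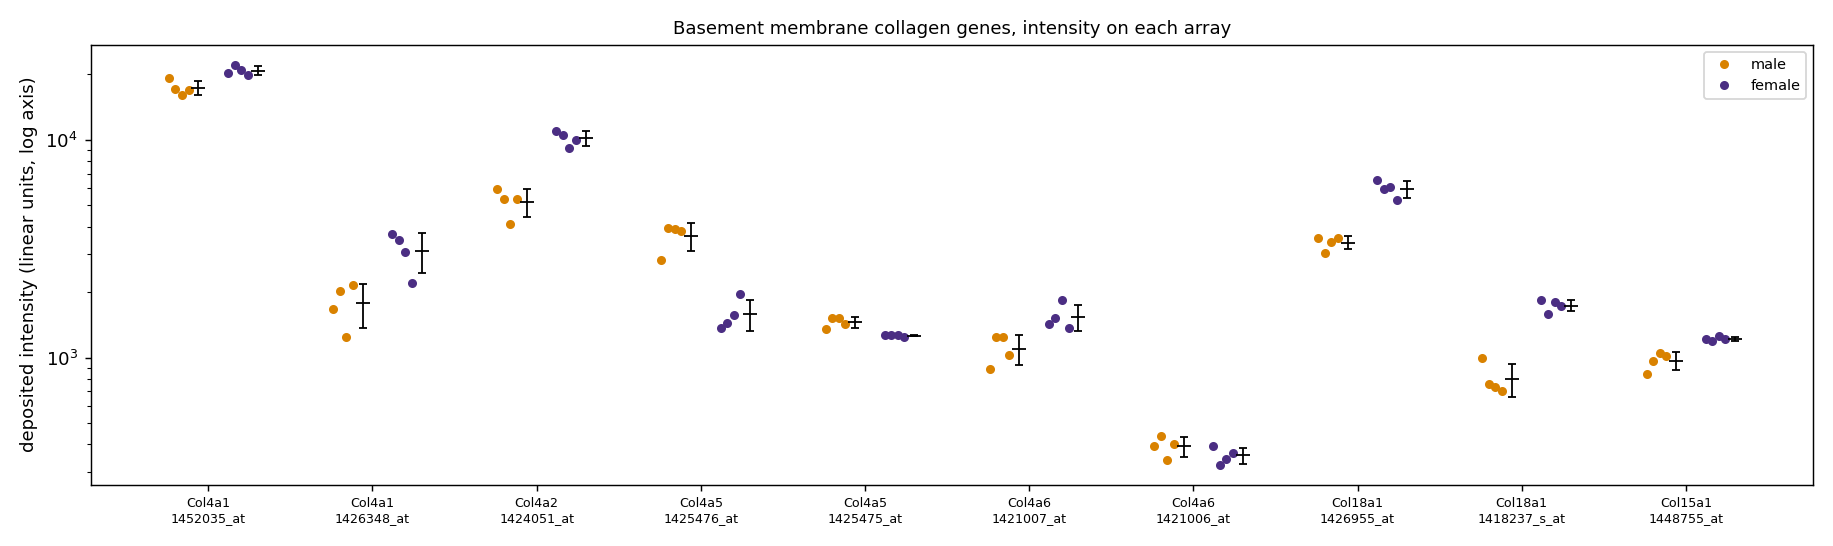
Deposited intensity (log axis) of each male (orange, left) and female (purple, right) array for the basement membrane collagen probe sets, with the mean ± SD of 4 arrays in black. The Col4a1, Col4a2 and Col18a1 points lie lower in males on every probe set, and the 4 male points of the brighter Col4a5 probe set lie above the 4 female points.

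Among the fibrillar collagens Col1a2 and Col3a1 overlapped between the sexes, and the calls fell on Col1a1, the type V chains and Col24a1. In this class 15 of 18 probe sets were tested, with 3 called higher and 3 called lower in males. That is 40%, beside 40.5% of all tested probe sets. Col1a2 (chromosome 6, 4505618 to 4541543), a chain of type I collagen, read 26785, 30845, 29834 and 31212 in males, against 31423, 32473, 32198 and 28305 in females (-0.07 ± 0.07, limma adjusted p = 0.447). Col3a1 (chromosome 1, 45311538 to 45349706), of the pliable fibres of embryonic mesenchyme, read 41463, 44891, 45508 and 44384 in males, against 47220, 47915, 46802 and 41703 in females (-0.06 ± 0.06, limma adjusted p = 0.447). For both genes the sexes overlapped. The other Col1a2 and Col3a1 probe sets did not pass either, with differences of -0.16, -0.06 and 0.11. The sign of the Col3a1 difference turned under quantile normalization (0.02).

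Col1a1 (chromosome 11, 94936224 to 94953042), the other chain of type I collagen, was the single gene with calls in both directions. Its brighter probe set read 5856, 6533, 7313 and 5649 in males, against 4268, 4997, 4155 and 4862 in females (0.47 ± 0.11, limma adjusted p = 0.00594). The dimmer one read 213.1, 132.3, 113.9 and 63.99 in males, against 640.1, 515.2, 528.3 and 437.3 in females (-1.98 ± 0.29, limma adjusted p = 0.000393). Its male mean of 7.10 on the log2 scale lay under the filter of 7.77, so it was tested only through the females, where it is high; with no filter it also passed (limma adjusted p = 0.00196). On each probe set the sexes were fully separated, but in opposite order. The log2 ratio of the brighter to the dimmer probe set ran from 4.68 to 6.15 on male arrays and from 2.71 to 3.43 on female arrays. Both calls held in every fit without 1 array, so the direction for Col1a1 depends on the probe set. The places of these probe sets within the transcript were not used here.

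Type V collagen, a minor component that sets the width of type I fibres, also had calls on both sides. Col5a2 read 30708 ± 2339 in males and 25144 ± 633 in females on its brighter probe set (SD, n = 4 each), a difference of 0.29 ± 0.07 (limma adjusted p = 0.00482). Its other probe set did not pass (-0.04 ± 0.07, limma adjusted p = 0.686). Col5a1 was called lower in males on its brightest probe set (-0.24 ± 0.08, limma adjusted p = 0.0356) and on another (-0.41 ± 0.15, limma adjusted p = 0.0438), with overlapping ranges on both, while the dimmest probe set differed by 0.20 ± 0.23 and did not pass. Both Col5a1 calls were fragile: they ended in 5 and 7 of the 8 fits without 1 array, with limma adjusted p up to 0.118 and 0.124 there. Over all alternatives the limma adjusted p of these probe sets ran from 0.016 to 0.331 and from 0.00968 to 0.79.

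Col24a1 (chromosome 3, 145292472 to 145552013) encodes a fibrillar chain known from developing bone and eye. It read 2036, 2622, 1998 and 1882 in males, against 540.0, 1278, 1211 and 760.6 in females. The sexes did not overlap, and the difference was 1.23 ± 0.24 (limma adjusted p = 0.00219). Of the bone markers, none of the 2 tested was called, and Ibsp and Dmp1 stayed under 100 on all arrays. The summed intensity of the 4 measured bone markers was 669.8 to 979.6 in males and 948.3 to 1185 in females. Col27a1 did not pass on either probe set (-0.16 and 0.07), and Col5a3 and Col11a2 lay under the filter.

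**Figure D3:**
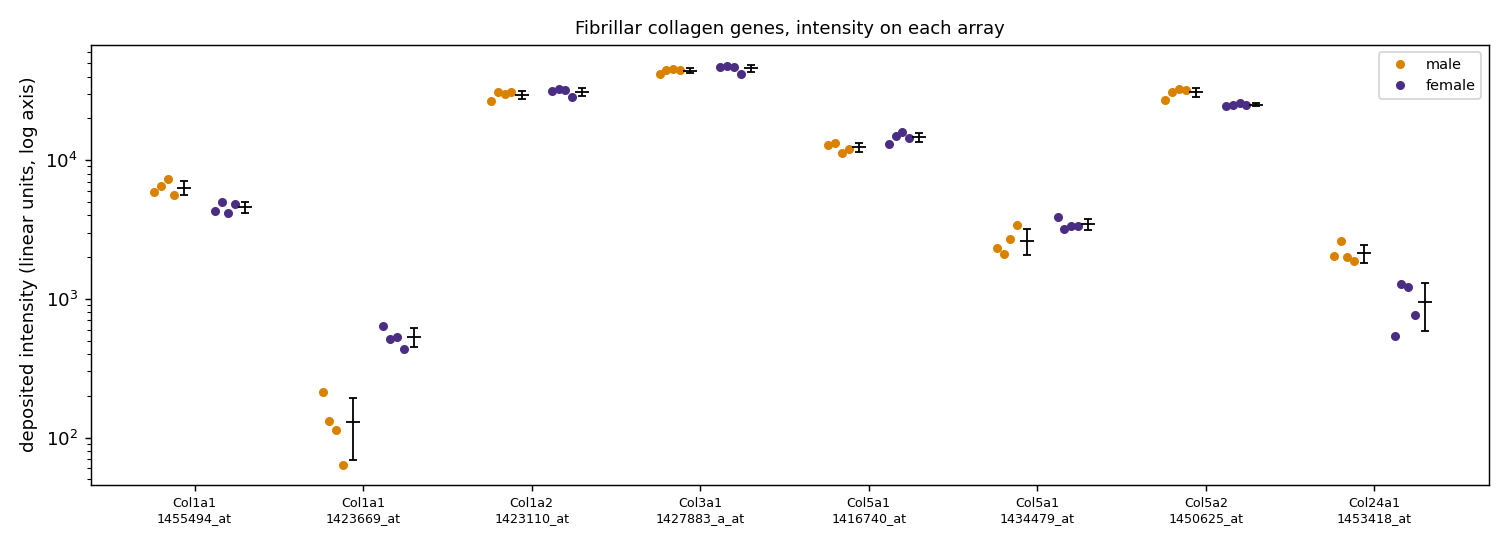
Deposited intensity (log axis) of each male (orange, left) and female (purple, right) array for fibrillar collagen probe sets, with the mean ± SD of 4 arrays in black. The Col1a2 and Col3a1 points of the sexes overlap, the Col1a1 probe sets separate the sexes in opposite directions, and Col24a1 lies higher in males.

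The beaded filament and anchoring genes gave no call. Of 7 type VI probe sets 4 were tested and 0 passed with limma, 1 of them with an unadjusted p under 0.05. That was Col6a1 (chromosome 10, 76708792 to 76726044), which read 5490, 5996, 4404 and 4940 in males, against 6227, 6186, 7002 and 6007 in females. Its ranges did not overlap, and it lay at the threshold (-0.29 ± 0.11, limma adjusted p = 0.0503), passing in 5 of 18 alternatives other than the 18S covariate. Col6a2 (0.05 ± 0.11 on its brighter probe set) and Col6a3 (-0.09 ± 0.09), whose chains assemble with that of Col6a1, overlapped between the sexes.

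Col7a1 forms the anchoring fibrils that tie epidermis to the mesenchyme below. It read 2063, 1830, 1903 and 1734 in males, against 1624, 1816, 1866 and 1781 in females (0.09 ± 0.12, limma adjusted p = 0.595). Col17a1, the transmembrane collagen of the hemidesmosomes of basal epidermal cells, read 4103, 2426, 2896 and 2120 in males, against 2258, 3086, 3440 and 2050 in females (0.08 ± 0.21, limma adjusted p = 0.794). Both overlapped between the sexes. The Col17a1 sign turned without male replicate 1 (-0.11) or female replicate 4 (-0.04), so that no direction can be given, although 4 epithelial keratin genes above were lower in males.

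The fibril-associated collagens that were called were all higher in males. Of 21 probe sets of 7 genes, 10 of 6 genes were tested, with 3 called higher and 0 lower (limma; 0 lower in males at an unadjusted p under 0.05 as well). The called share was 30%, beside 40.5% of all tested probe sets (18.7% higher in males), and the calls fell on 2 genes. Col9a3 (chromosome 2, 180598102 to 180622192) encodes a chain of type IX collagen, which coats the fibres of cartilage and of the eye. On its brightest probe set it read 598.2, 542.6, 1190 and 829.3 in males, against 279.7, 273.2, 303.7 and 252.8 in females (1.39 ± 0.24, limma adjusted p = 0.000868). On the next it read 360.5, 830.8, 477.3 and 319.4 in males, against 174.3, 167.4, 147.8 and 213.6 in females (1.33 ± 0.28, limma adjusted p = 0.00299). The female mean of that dimmer probe set was 7.57 on the log2 scale, under the filter of 7.77, so it was tested only through the males, where it is high; with no filter it also passed (limma adjusted p = 0.0111). No female value reached the lowest male value on either, and another probe set under the filter read 99.1 to 154.6 in males and 51.7 to 85.2 in females.

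The partner gene Col9a1, left out of the set by the rule, moved the same way: it read 1906, 4903, 2841 and 2558 in males, against 793.1, 1005, 719.6 and 1030 in females (1.69 ± 0.24, limma adjusted p = 0.000342). The remaining type IX gene, Col9a2, was not tested and read 29.9 to 94.4 in males and 29.3 to 146.7 in females, with the lower mean in males. Col11a1 was called higher in males on 1 of 2 tested probe sets (0.83 ± 0.19), and Col2a1, the main cartilage collagen, read 441.6 to 568.8 in males and 359.6 to 404.4 in females without passing (0.36 ± 0.17, limma adjusted p = 0.0975). Of 5 tested cartilage markers 1 was called, the chondrocyte factor Sox9, higher in males (1.12 ± 0.16). That is 20%, beside 42.2% of all tested genes. Among the dim, untested markers Cnmd read 78.1 to 369.4 in males and 2.45 to 23.3 in females. Snorc, also untested, read 43.5 to 136.7 in males and 17.3 to 30.3 in females. The untested Acan, Matn1, Matn3 and Comp overlapped between the sexes. The summed intensity of the 11 measured cartilage markers was 7089 to 8281 in males and 5458 to 6073 in females, and the part of cartilage cells in the Col9a3 difference was not tested. Without Col9a3, Col10a1 and Col11a2, 18 of 48 tested probe sets were called, 7 higher and 11 lower in males, 37.5% in place of 40%.

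Col19a1 (chromosome 1, 24257683 to 24587922), a fibril-associated collagen of embryonic muscle, read 1026, 779.0, 796.0 and 785.5 in males, against 522.3, 479.9, 462.8 and 700.9 in females. The difference was 0.64 ± 0.18 (limma adjusted p = 0.0143), and all males lay above all females. The call ended without male replicates 1 and 3 (limma adjusted p = 0.0689; over the other alternatives 0.00548 to 0.0466, and 0.355 with the 18S covariate), and a dimmer probe set did not pass (0.45 ± 0.28, limma adjusted p = 0.215). Col12a1, of tendon and fascia, read 5532 to 7285 in males and 3344 to 6924 in females (0.43 ± 0.20, limma adjusted p = 0.11), and Col14a1 read 16837 to 20002 in males and 14975 to 18159 in females (0.19 ± 0.08, limma adjusted p = 0.0895). Col16a1 and Col22a1 differed by -0.21 and 0.11 and did not pass.

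Skeletal muscle markers moved in the same direction as Col19a1. Of 9 tested, 8 were higher in males, among them Myh3 (1.47 ± 0.31) and Chrna1 (1.18 ± 0.17), and the summed intensity of the 12 measured was 20579 to 31455 in males and 7074 to 17391 in females. None of the 12 stayed under 100 on all arrays. The called share of the tested muscle markers was 88.9%, beside 42.2% of all tested genes (14% higher in males). Col25a1, a transmembrane collagen that developing muscle needs to attract motor axons, read 16914 to 23074 in males and 15846 to 18396 in females on its brighter probe set and did not pass (0.21 ± 0.09, limma adjusted p = 0.091). The part of muscle cells in the values of Col19a1 was not tested.

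The transmembrane collagens Col13a1 and Col23a1 were called, in opposite directions. Col13a1 (chromosome 10, 61838234 to 61979206), which helps mature the nerve-muscle synapse, read 908.0, 464.5, 726.6 and 708.1 in males, against 1457, 1539, 1256 and 1218 in females (-0.98 ± 0.20, limma adjusted p = 0.0023). All males lay below all females, opposite to the skeletal muscle markers. Col23a1 (chromosome 11, 51289679 to 51583925) differed by probe set. On its dimmest probe set it read 1070, 513.9, 508.9 and 215.0 in males, against 56.4, 100.6, 160.5 and 64.2 in females (2.30 ± 0.42, limma adjusted p = 0.00137). This probe set lay just inside the intensity filter, with a mean log2 value of 7.86 where the filter was 7.77. Its female mean was 6.71, so it was tested only through the males, where it is high; with no filter it also passed (limma adjusted p = 0.00618). The 2 brighter Col23a1 probe sets read lower in males without passing (-0.32 ± 0.14 and -0.39 ± 0.16, limma adjusted p = 0.0908 and 0.064), so no single direction can be given for the gene.

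Of the short-chain collagens, which form open lattices, Col8a1 was called. It read 18512 ± 3347 in males and 11869 ± 1688 in females on its brightest probe set (SD, n = 4 each), a difference of 0.63 ± 0.14 (limma adjusted p = 0.00376). A dimmer, untested Col8a1 probe set read 238.9 to 338.1 in males and 67.7 to 165.6 in females, and another overlapped. Col8a2, whose chain assembles with that of Col8a1 in the cornea, did not pass (-0.30 ± 0.23). Col10a1, of hypertrophic cartilage, read 8.27 to 17.8 in males and 9.94 to 15.0 in females. Col26a1, first described in testis and ovary of mice, read 2203 ± 260 in males and 3225 ± 59.1 in females (SD, n = 4 each), a difference of -0.55 ± 0.12 (limma adjusted p = 0.00285).

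**Figure D4:**
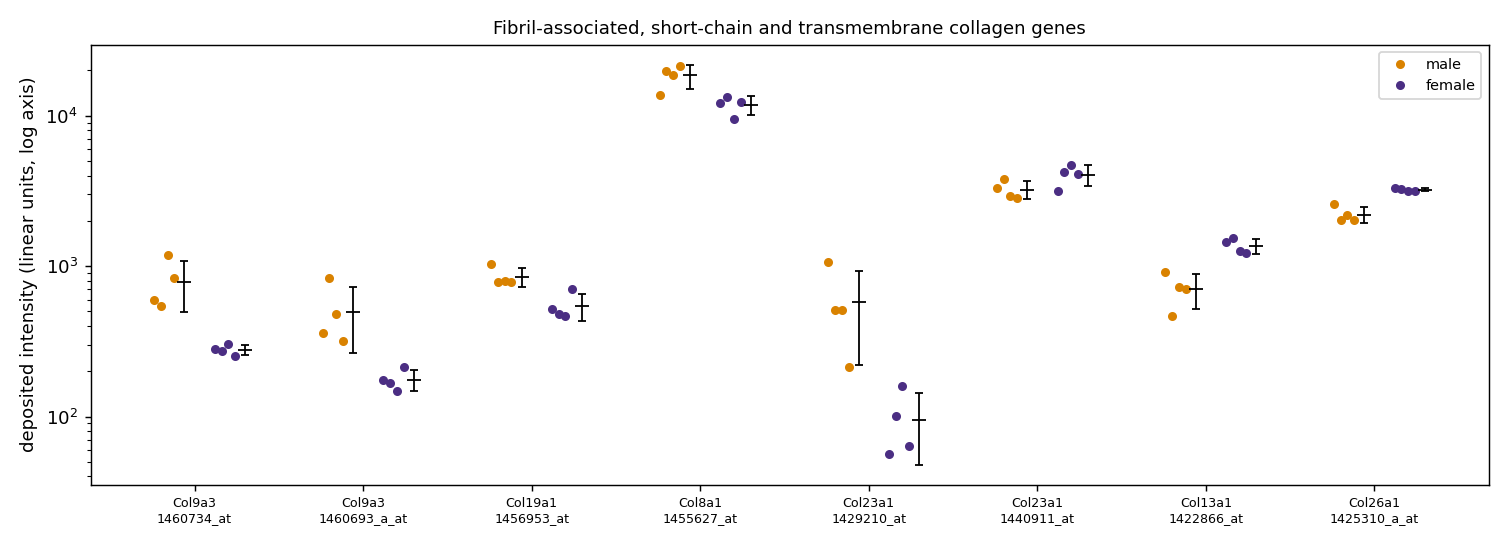
Deposited intensity (log axis) of each male (orange, left) and female (purple, right) array for fibril-associated, short-chain and transmembrane collagen probe sets and Col26a1, with the mean ± SD of 4 arrays in black. Col9a3, Col19a1 and Col8a1 lie higher in males and Col13a1 and Col26a1 lower, and the Col23a1 probe sets differ in direction.

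The 26 untested collagen probe sets covered 8 genes with no tested probe set, among them Col4a3, Col4a4, Col5a3, Col10a1, Col11a2 and Col20a1. Their intensities ran from 2.31 to 415.7 over all arrays, and 13 stayed under 100 on every array. Those nearest to the filter were Col5a3 and Col22a1 with mean log2 values of 7.76 and 7.73 outside it and Col23a1 and Col12a1 with 7.86 and 7.90 inside it. Of 17 collagen genes with several tested probe sets, 8 had a single sign and 9 had both signs, many of them in differences near 0 that did not pass. Over all 4934 such genes 47.8% had both signs, and 7.52% had calls in both directions, as Col1a1 alone did here. Within a sex the coefficient of variation of the tested collagen probe sets had a median of 13.6% in males and 9.94% in females, beside 15.8% and 13.2% over all tested probe sets.

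Genes whose products modify, fold, export and process collagen held calls in both directions. Each gene was read on its brightest tested probe set. Of 34 tested collagen synthesis genes, 8 were higher and 15 lower in males, 67.6% in all, beside 42.2% over all 11489 tested genes (14% higher and 28.2% lower in males). The median difference of the list was -0.27, beside -0.12 over all tested genes. Over all probe sets the called share was 52.3% at the upper-quartile filter and 40.5% in the main fit. The shares compared here were not matched for brightness. With the 18S covariate 0 of these genes were called higher in males and 1, Ppib, lower.

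As the synthesis genes were grouped here, the prolyl hydroxylase group was the only one with calls in a single direction. Of its 9 tested genes 5 were lower in males and 0 were higher, 55.6% called beside 42.2% of all tested genes. Ppib, the cyclophilin that turns proline bonds during helix folding, read 8374, 6793, 5683 and 6257 in males, against 15422, 13806, 14748 and 13589 in females (-1.10 ± 0.11, limma adjusted p = 5.86e-05). Its partners P3h1, the hydroxylase, and Crtap, the scaffold, differed by -0.65 ± 0.15 and -0.44 ± 0.11 (limma adjusted p = 0.00532 and 0.00874). P3h4, which works with lysyl hydroxylase 1, and P3h3 differed by -1.09 ± 0.19 and -0.75 ± 0.19. All 5 kept their call in each of the 8 fits without 1 array. The subunits of the main prolyl hydroxylase did not pass: P4ha1 (-0.10), P4ha2 (-0.29) and P4hb (0.09). P3h2 did not pass either (-0.07), so the calls describe this group of genes and not prolyl hydroxylation as a whole.

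The other groups held calls in both directions. Among lysyl hydroxylases, Plod2, which modifies the end pieces that form crosslinks, was higher in males (1925 ± 778 in males and 760.2 ± 274 in females, SD, n = 4 each, 1.31 ± 0.29, limma adjusted p = 0.00393). Plod1 (-0.62 ± 0.21) and Plod3 (-0.60 ± 0.16) were lower. The Plod1 call ended in 6 of the 8 fits without 1 array (limma adjusted p up to 0.0837; over all alternatives 0.00236 to 0.266). Of 12 tested chaperone and export genes, 5 were higher and 4 lower, with the disulfide isomerase gene Pdia3 at 1.28 ± 0.21 and Mia3, a cargo receptor for bulky procollagen, at 1.71 ± 0.41. Mia3 had 2 other tested probe sets of the opposite sign, its call ended without male replicates 1 and 3 (limma adjusted p = 0.071; over all alternatives 0.00299 to 0.92), and its difference was 0.11 with the 18S covariate. That covariate also left Plod2 at 0.37, and Tll1 at 2.25. Serpinh1, the collagen-specific chaperone, was lower (11594 ± 446 in males and 17068 ± 1548 in females, SD, n = 4 each, -0.55 ± 0.08), with 1 other probe set of the opposite sign.

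Of 8 tested trimming and crosslinking genes, 1 was higher and 4 were lower in males, 62.5% called beside 42.2% of all tested genes. Among the enzymes that trim procollagen, the related proteases Tll1 and Bmp1 went opposite ways. Tll1, of the tolloid family that removes the end piece of fibrillar collagens, read 906.0, 2249, 2978 and 2983 in males, against 441.9, 416.8, 373.9 and 648.4 in females (2.13 ± 0.33, limma adjusted p = 0.000519). Male replicate 1 lay nearest to the females, and the sexes did not overlap. Its relative Bmp1 was lower in males (-0.80 ± 0.14, limma adjusted p = 0.000957), as was Pcolce, which enhances that cleavage (-0.94 ± 0.16, limma adjusted p = 0.000801). Adamts3 of this group was lower as well (-0.39 ± 0.10, limma adjusted p = 0.00862). The crosslinking enzyme gene Loxl3 was lower (-0.64 ± 0.12) and Lox, the main lysyl oxidase gene, did not pass (-0.03, limma adjusted p = 0.784).

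The collagen receptor genes were read in the same way. Of 10 tested, 2 were higher and 1 lower in males, 30% in all beside the 42.2% of all tested genes. Itgb1, the shared beta subunit of the collagen-binding integrins, read 8656 ± 484 in males and 4160 ± 482 in females (SD, n = 4 each, 1.06 ± 0.10, limma adjusted p = 5.35e-05). Its partner Itga1 was also higher (0.78 ± 0.26, limma adjusted p = 0.0313), though the ranges overlapped and the call ended in 5 of the 8 fits without 1 array (limma adjusted p up to 0.0874; over all alternatives 0.00987 to 0.401). Mrc2, which takes up collagen fragments for breakdown, was lower (-1.07 ± 0.15, limma adjusted p = 0.00029). The discoidin domain receptor genes Ddr1 and Ddr2 did not pass (-0.16 and -0.10). Mesenchymal markers were mixed: of 10 tested, 2 were higher in males (Lum and Postn) and 3 lower (Pdgfrb, Vim and Twist1; 2 other tested Vim probe sets had the opposite sign), with sums of 135469 to 153488 in males and 145592 to 156181 in females. Their called share was 50%, beside the 42.2% of all tested genes.

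Markers of other cell types that the dissected tissue could hold were read beside the 42.2% of all tested genes that were called. Of 7 tested smooth muscle markers 2 were higher in males, with sums of 8036 to 11792 in males and 5748 to 9037 in females, and Cnn1 stayed under 100. Of 7 neuronal markers 4 were higher and 2 lower, and of 5 Schwann cell and neural crest markers 2 were higher and 0 lower (limma). Erythroid markers had 1 higher and 1 lower of 5 tested, with Hba-a1 under 100, and macrophage markers 1 and 1 of 6, with Aif1 under 100. The called share was 28.6% for smooth muscle, 33.3% for macrophage, 40% for erythroid and 40% for Schwann cell markers, none above that background, and 85.7% for neuronal markers. Their part in the collagen differences was not tested.

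**Figure D5:**
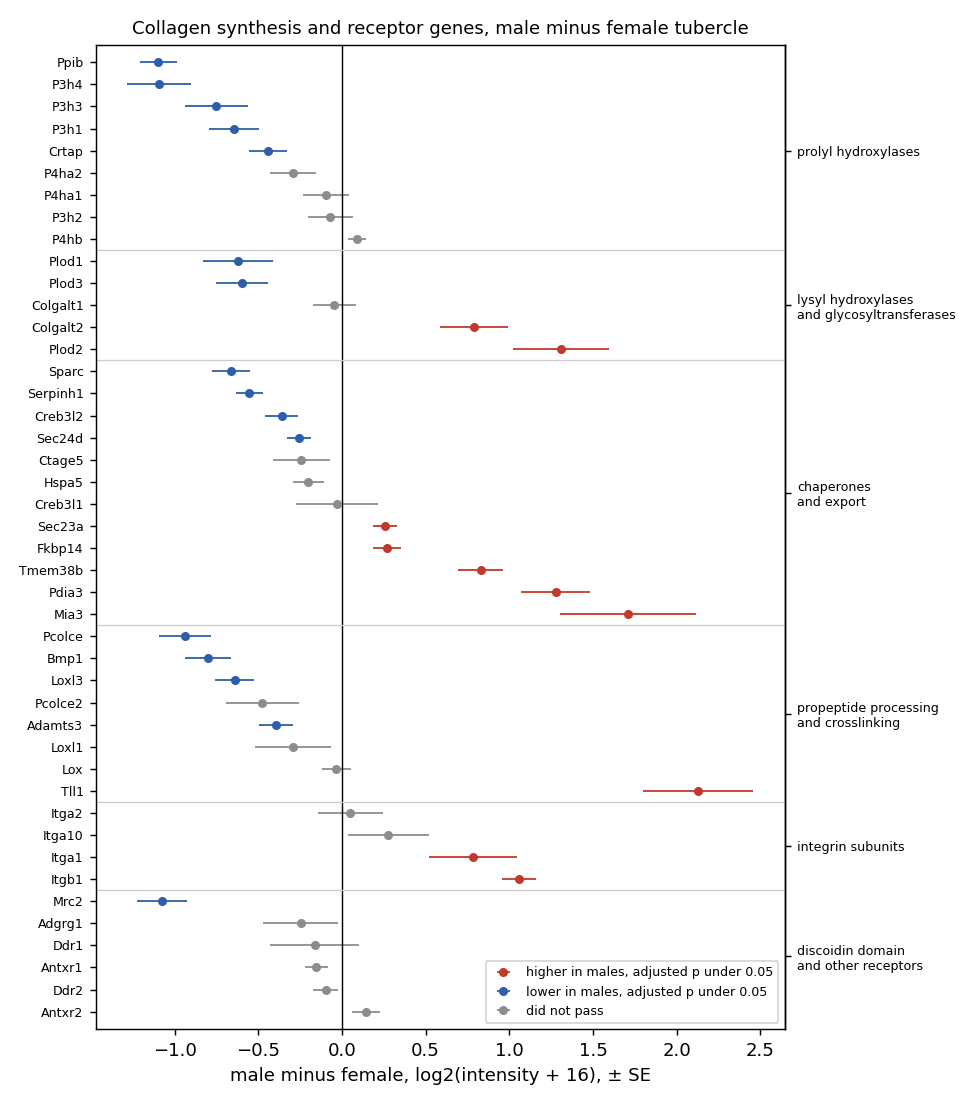
Male minus female difference of log2(intensity + 16) for the 34 tested collagen synthesis genes and 10 tested receptor genes, each on its brightest tested probe set (points, bars are ± SE of the limma fit, n = 4 per sex). Red points were higher and blue points lower in males at an adjusted p under 0.05. The called genes of the prolyl hydroxylase group all lie left of 0, Tll1 lies at 2.13, and Itgb1 and Mrc2 lie on opposite sides.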

How the data were processed

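The deposited values are linear intensities per probe set. The submitters' processing notes name GCOS, from Affymetrix, for which no version was found. Each array had a 2%-trimmed mean of 1500.0, so no further normalization was applied. Array medians lay between 211.7 and 249.4 in males and between 184.4 and 206.6 in females. The 64 control probe sets were left out. Probe sets were named from the platform annotation where it gives 1 gene (34945 of 45101), and all 38 collagen genes matched the RefSeq gene table (GRCm38.p6). Members, gene lists and tests were chosen with earlier results of these data known.

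Values were transformed as log2(intensity + 16), and probe sets with a mean at or above the median of the means (7.77) were kept (22519). All 8 arrays were fitted with limma (version 3.58.1, R version 4.3.3) on sex alone, with an intensity-dependent prior variance (trend) and Benjamini-Hochberg adjustment over all tested probe sets (threshold 0.05). It was tested on simulated data. Values on all arrays are given for up to 6 called probe sets in each direction with the largest differences, for the brightest probe set of 11 fixed genes and for genes called in both directions; from each gene or marker list the rule names up to 4 called genes with the largest differences. Further genes of the lists, among them the other synthesis, receptor and marker genes given values, Col9a1 and the dim probe sets were added after their values were seen. Precision is set by having 4 arrays in each sex. Of 38 genes, 30 had a promoter sequence.

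Alternatives were quantile normalization, centring on the array median, pseudocounts of 1 and 64, no filter and an upper-quartile filter, no trend, weights per array, a replicate block, the 18S covariate, the mean of a gene's probe sets, and leaving out each array or male replicates 1 and 3.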

Additional observations from a re-analysis of the deposited data

Results flagged for a closer look

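Outlying arrays were sought in 46 groups of 4 by the gap to the nearest array over the group's range on the log2 scale, which chance exceeds in about 1 of 20 groups. In 3 groups 1 array stood apart. Male replicate 1 read 2806 for Col4a5 on its brighter probe set, below the 3825 to 3961 of the other males and above all females. It also read 1026 for Col19a1, above the 779.0 to 796.0 of the other males. Without it both calls held. Female replicate 4 read 41703 for Col3a1, below the 46802 to 47915 of the other females.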

How the results depend on the processing

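Of the 20 called collagen probe sets, 14 kept their call in every alternative that tested them, the 18S covariate aside. In the fits without 1 array, 17 kept their call wherever they were tested. Both counts include the called Col23a1 probe set, which fell under the filter and was not tested without male replicate 1, 2 or 3. With the 18S level as a covariate 0 collagen probe sets were called higher and 0 lower in males, 0 synthesis genes higher and 1 lower, and 1 receptor gene higher and 0 lower. The 18S level did not overlap between the sexes. At the upper-quartile filter, which tests fewer probe sets, 5 collagen probe sets, 5 synthesis genes and 1 receptor gene were higher in males. Without male replicates 1 and 3 together 7 collagen probe sets were lower in males, in place of 11. Receptor genes higher in males numbered 1 under quantile normalization and 1 with no filter. Without 1 array the counts ran from 8 to 11 (collagen probe sets higher in males), 8 to 13 (lower), 7 to 8 (synthesis genes higher), 12 to 16 (lower), 1 to 2 (receptor genes higher), 1 to 2 (lower) and 21 to 26 (ranges that did not overlap). Signs turned for uncalled probe sets alone: Col3a1 under quantile normalization (0.019), Col7a1 with the 18S covariate (-0.077), and Col17a1 with array weights (-0.19), with the 18S covariate (-0.37), without male replicates 1 and 3 (-0.22), and without 1 array, where it ran from -0.11 to 0.21 and was below 0 without male replicate 1 or female replicate 4. The cause was not tested. The replicate number as a block gave 9 collagen probe sets higher and 9 lower in males. Correlations of deviations from the sex means ran from -0.126 to 0.039 between same-numbered arrays. Between arrays of other numbers they ran from -0.200 to 0.210. The check shows no pairing by number, but with 4 arrays in each sex it cannot exclude a shared litter or day. Intensities near the filter have no detection call here.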

Other observations

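Among the dim collagen probe sets that were not tested, 5 of 26 (19.2%) had male and female ranges that did not overlap, all with higher values in males. Over all 22518 untested probe sets 8.91% did not overlap, and 6.79% did so with higher values in males. The array medians were also higher in males, and the part of this in the dim values was not tested. For 1 Col12a1 probe set the intensities were 53.3 to 90.9 in males and 5.20 to 14.4 in females. Col20a1, a fibril-associated collagen gene, has 4 probe sets. On 1 of them the intensities were 63.9 to 104.3 in males and 10.2 to 58.2 in females, and the rest overlapped. The other probe sets without overlap belong to Col8a1, Col9a3 and, at 3.55 to 7.99 in males and 2.31 to 3.53 in females, Col12a1.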
